A study of Mus musculus with 74 samples.

Results

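Mice with 1 normal Aire copy and 1 C313Y copy were compared with mice that have 1 normal copy and 1 null copy. The 7 libraries compared, of 74 in the series, were chosen by genotype label and title: 4 +/C313Y libraries (numbered 50, 53, 73 and 75) and 3 Aire+/- libraries (392, 395 and 402). All were made from mTEChi, the MHC class II-high fraction of medullary epithelium, sorted from dissociated thymi of NOD mice aged 4 to 7 weeks. NOD is an inbred strain that develops autoimmune diabetes. Each side carries 1 normal Aire allele, so the comparison asks how a C313Y copy beside it differs from a null copy. For orientation the same NOD table held 5 wild-type libraries titled like +/C313Y (2 of them as C313T), 3 Aire-/- libraries titled like Aire+/-, 3 -/C313Y libraries, and 3 wild-type libraries titled like -/C313Y. A separate table of C57BL/6 (B6) mTEChi, used for gene sets and 1 contrast, gave 3 wild-type, 5 Aire+/- and 4 Aire-/- libraries, and 1 further B6 library was left out because its title says wild type and its genotype label Aire -/-. Genotype and title form cannot be told apart between +/C313Y and Aire+/-, so values against wild type stand beside the results. Nothing in the labels says that libraries of a group came from separate mice, and p-values then measure only the spread between these samples. In bulk libraries, fewer cells of a type and less RNA per cell cannot be told apart.

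AIRE is a nuclear protein of mTEChi that raises the transcription of many genes otherwise restricted to other organs, so that developing T cells meet those proteins in the thymus and self-reactive cells are removed or become regulatory T cells. Its PHD fingers are zinc-binding modules, and the first of them reads the unmodified tail of histone H3. AIRE works as a multimer, and loss of both copies causes autoimmune polyendocrine syndrome in people. The changed residue lies in the first PHD finger. In the GENCODE M21 annotation (GRCm38) Aire lies on the minus strand of chromosome 10 at chr10:78030022-78043610, and its transcript 204 has 14 exons. Residue 313 is cysteine in the reference, its codon lies in exon 8 at chr10:78037935-78037937, and the reference coding strand around it, with the codon in capitals, shows the site of the allele.
Aire codon 313 with 30 bases on each side: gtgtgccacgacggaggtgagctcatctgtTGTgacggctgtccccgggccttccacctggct

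The +/C313Y libraries held 2468094 to 2796072 counts and the Aire+/- libraries 2640249 to 3692601, within 1536436 to 3692601 over the 21 NOD libraries. The effective scaling differed as well: TMM factors, which correct library totals for composition, were 0.977 to 1.02 in +/C313Y and 1.08 to 1.11 in Aire+/-. Levels are given as CPM, a gene's counts relative to the library total after that correction. By Xist and Y-linked counts, 3 of 4 +/C313Y libraries were female and 2 of 3 Aire+/- libraries male, while Aire+/- library 392 held 283 Xist and 132 Y-linked counts. Of the 8 defining genes of thymic epithelium (Epcam, Krt8, Krt18, Krt19, Foxn1, Cd74, H2-Aa and Aire), all were tested and present in every group.

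Aire mRNA itself was higher in +/C313Y. Its level was 3921, 4785, 3304 and 3024 CPM in +/C313Y libraries 50, 53, 73 and 75, and 1778, 2320 and 2168 CPM in Aire+/- libraries 392, 395 and 402. The groups did not overlap, and library 53 stood highest. The log2 difference was 0.85 ± 0.17 (SE), with an adjusted p of 0.000592 (edgeR quasi-likelihood test, Benjamini-Hochberg over 13827 genes). Against the 5 wild-type libraries of its own title form, at 2441 CPM ± 475 (SD, n = 5), +/C313Y was 0.62 higher on the log2 scale (adjusted p = 0.00224). Aire+/- lay 0.23 below the same wild type on that scale, which did not pass the test (adjusted p = 0.452). Aire-/- libraries still held 3259 CPM ± 299 (SD, n = 3) of Aire 3' tags. Where in Aire the null allele is cut is not stated, so these tags check no label.

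The genes around Aire on chromosome 10 did not move alike. Of the 5 tested members of the locus list, Aire included, 3 were higher, 1 was lower and 1 did not pass; over all genes 15.8% were called in either direction. Dnmt3l, a cofactor of DNA methyltransferases at chr10:78041947-78063622 whose span overlaps the Aire 5' end on the other strand, was the lower gene. It had 44.4, 60.4, 28.4 and 38.9 CPM in the +/C313Y libraries and 103, 92.6 and 92.5 CPM in Aire+/- (log2 -1.16 ± 0.20, SE, adjusted p = 0.000153). The +/C313Y libraries were all below the Aire+/- libraries but lay at the wild-type level of 43.8 CPM ± 10.4 (SD, n = 5), and Aire-/- was at 218 CPM ± 26.4 (SD, n = 3). Pfkl, the liver-type phosphofructokinase, was 0.63 ± 0.16 higher on the log2 scale (adjusted p = 0.00587). Without Aire+/- library 395 its adjusted p was 0.0534, and against wild type +/C313Y differed by -0.06 (adjusted p = 0.85).

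Across the transcriptome the difference was mostly one of lower genes. At an adjusted p under 0.05, 1628 of 13827 genes (11.8%) were lower in +/C313Y and 559 (4.04%) were higher. Of these, 1405 (10.2%) were at least 2-fold lower and 96 (0.694%) at least 2-fold higher, and the median log2 difference over all genes was 0.01. The number of higher genes rested on each of the Aire+/- libraries: it was 334, 297 and 343 without library 392, 395 or 402, while the number of lower genes was 1345, 1356 and 1292. Without libraries 392 and wild-type 52, which held both Xist and Y-linked counts (an alternative chosen after seeing the data), 1320 genes were lower and 345 higher. In the authors' deposited table, which compares the same groups with DESeq2, 1710 genes were higher in Aire+/- and 587 higher in +/C313Y. The authors' deposited table and the edgeR calls shared 1510 lower and 537 higher genes, and 0 genes were called in opposite directions.

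**Figure D1:**
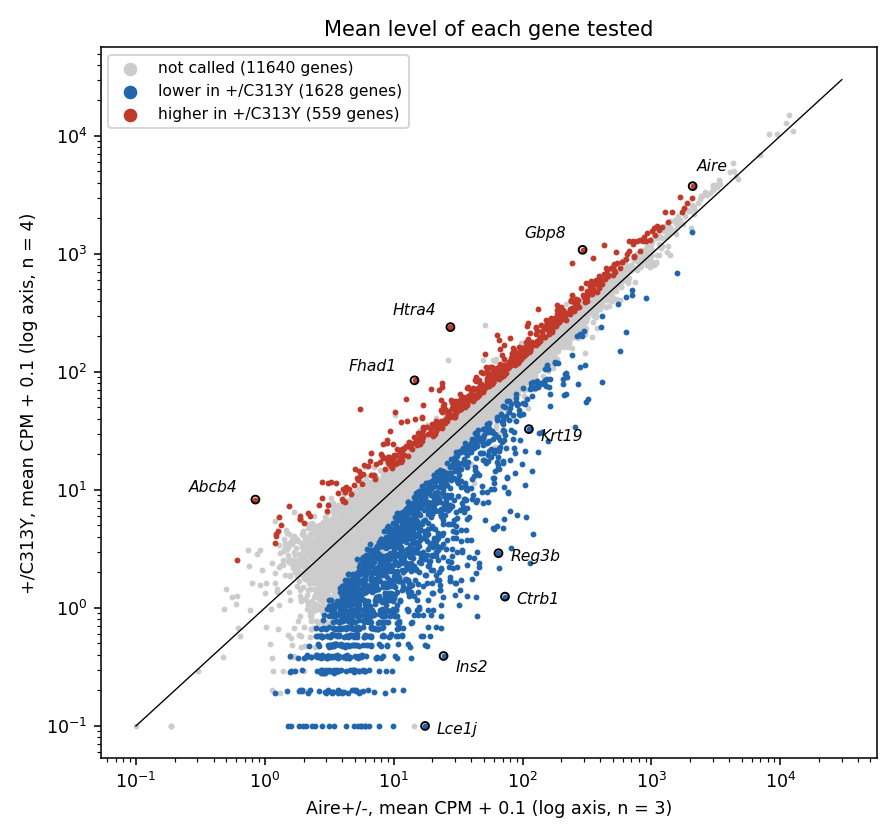
Mean level of each of the 13827 genes tested, in Aire+/- (x axis, CPM + 0.1, log axis, n = 3) against +/C313Y (y axis, same unit, n = 4), with called genes in colour and the diagonal of equal level. The lower genes (1628) spread far below the diagonal at low and middle levels, and most of the 559 higher genes run close above it.

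Wild-type libraries of different title forms also differed. Those of the +/C313Y form and those of the -/C313Y form differed at 1221 genes (8.83%). That count was 732 or 738 without library 2 or 3 of the -/C313Y form. No wild-type library had the title form of Aire+/-, so this count does not measure the form difference between +/C313Y and Aire+/-. Aire+/- differed from the 5 wild-type libraries of the +/C313Y form at 625 genes (4.52%), with 443 higher in Aire+/- (3.2%) and 182 lower (1.32%). +/C313Y differed from them at 2402 genes (17.4%), with 880 higher (6.36%) and 1522 lower (11%). Without the 2 wild-type libraries titled C313T the excess of lower genes was gone (1744 higher and 1721 lower), and without +/C313Y library 50 there were 523 higher and 1448 lower. The Aire+/- count was 973 and 1000 without wild-type libraries 45 and 47, and 271, 257 and 245 without Aire+/- libraries 392, 395 and 402 (44, 32 and 35 of them lower). Without wild-type libraries 45, 47, 52, 78 or 80, 374, 389, 112, 118 or 120 genes were lower in Aire+/-. The comparisons of Aire+/- and of +/C313Y with wild type share libraries with the heterozygote comparison and are set side by side only. A contrast that does not use the NOD Aire+/- libraries, the effect of +/C313Y on NOD minus the effect of Aire+/- on B6, each against its own wild type, called 867 of 14195 genes lower (6.11%) and 175 higher (1.23%), with 274 higher without wild-type library 47. In that contrast strain and allele cannot be told apart.

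Fewer genes were detected in +/C313Y. With every library thinned to 1536436 counts, +/C313Y libraries had 15074 genes with at least 1 count ± 163 (SD, n = 4) and Aire+/- libraries 16070 ± 26.4 (SD, n = 3). The groups did not overlap, and the two-sided exact permutation p of 0.0571 is the smallest that 4 against 3 samples allow. Wild-type libraries of the +/C313Y title form had 15670 to 16181 genes and Aire-/- libraries 14820 to 14919, so that +/C313Y lay between them and outside both ranges.

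Genes that AIRE raises on B6 were lower as a set in +/C313Y. The Aire-induced set was taken from the B6 libraries, which share no library with NOD: the 1294 genes (10.2% of those tested there) that fell 2-fold or more on B6 when both Aire copies were null. Its share of all counts was 1.63% ± 0.0427 (SD, n = 4) in +/C313Y and 3.49% ± 0.0608 (SD, n = 3) in Aire+/-, beside 3.45% ± 0.258 (SD, n = 5) in wild type and 1.55% ± 0.0220 (SD, n = 3) in Aire-/-. The 4 +/C313Y libraries spanned 1.60% to 1.69%, below every Aire+/- and wild-type library and above every Aire-/- library. Of the 1253 members tested on NOD, 809 were lower in +/C313Y than in Aire+/-, 13 were higher and the rest did not pass, with a median log2 difference of -1.69 against 0.01 over all genes. In Aire+/- against wild type the same set had a median of -0.07, with 43 members higher, 10 lower and 1200 not called.

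**Figure D2:**
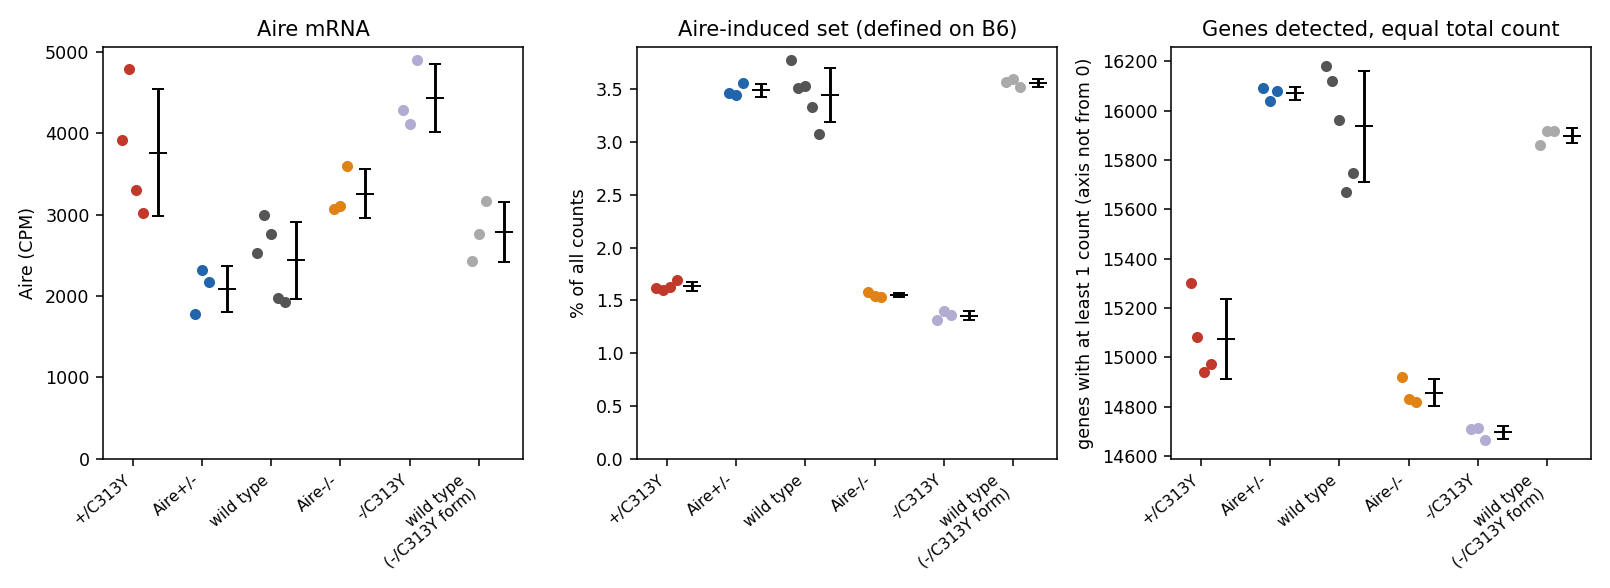
Aire mRNA (left, CPM), the share of all counts in the B6 Aire-induced set (middle, %) and genes detected after thinning to the same total count (right, axis not starting at 0) in each of the 21 NOD libraries, with the mean and SD of each group in black. The 4 +/C313Y libraries are above the Aire+/- libraries for Aire and below them for the other measures, and for the induced set they sit just above the Aire-/- libraries.

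The lower genes were largely those lower in other Aire mutants. Of the 1628 lower genes, 1321 were tested on B6, and 895 of those (67.8%) were also lower in B6 Aire-/-, against 18.9% of all genes tested in both; they made up 38.0% of the 2356 lower B6 genes. In -/C313Y against wild type of its own title form, again with no shared library, 1079 (66.3%) of the 1628 were lower, against 12.9% of all genes, and they made up 60.7% of the 1779 lower genes there. Of the 559 higher genes, 201 of 540 tested (37.2%) were higher in B6 Aire-/-, against 17.6% of all genes, and 197 (35.2%) were higher in -/C313Y, against 9.83%. In B6 Aire+/- against wild type, 9 of the 1321 genes were lower and 4 higher, where 0.102% and 0.378% of all genes were. That B6 comparison called 61 genes, 39 without Aire+/- library 440 and 15 to 23 without any of the 3 wild-type libraries.

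Antigens of peripheral organs were lower almost throughout. Of 27 tested genes on a list of known Aire-induced antigens, 26 were lower in +/C313Y, 0 higher and 1 did not pass (Csn2, a milk casein, at 981 and 1405 CPM, adjusted p = 0.0864), with a median log2 difference of -2.96. Csn2 passed without +/C313Y library 50 (adjusted p = 0.0423) and with only the 2 groups fitted (0.0214). Over all genes 11.8% were lower. The list was picked from what is known of Aire mutants, so its direction is no independent evidence. The organ lists below were also chosen with earlier results of these data known, and the same holds for them. Ins2, which encodes insulin, had 1, 0, 2 and 0 counts in the +/C313Y libraries and 109, 71 and 76 in Aire+/-. It was 83.3-fold lower in +/C313Y (95% counting interval 28.2 to 407, counting error only; adjusted p = 6.69e-07), and the groups did not overlap. Crybb2, a lens crystallin, had 0.734, 0.382, 0.400 and 0 CPM in +/C313Y and 21.3, 17.0 and 15.9 CPM in Aire+/- (log2 -5.40 ± 0.51, adjusted p = 1.43e-08).

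In the pancreas list 22 of 24 tested genes were lower and 0 higher, with a median of -2.88 (11.8% of all genes were lower). Ctrb1, the digestive protease precursor chymotrypsinogen, had 1.83, 0.764, 0.800 and 1.19 CPM in +/C313Y and 74.8, 46.8 and 97.3 CPM in Aire+/- (log2 -5.93 ± 0.43, adjusted p = 8.68e-10). Every +/C313Y library was far below the lowest wild-type library, at 23.4 CPM. Sycn, which encodes syncollin of zymogen granules, had 0 counts in all 4 +/C313Y libraries and was at least 21.8-fold lower. Ctrl, the chymotrypsin-like protease, did not pass (10.9 against 6.11 CPM, adjusted p = 0.0640), but did without +/C313Y library 75 (0.0482) or Aire+/- library 402 (0.0463).

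Gut genes gave 26 lower, 1 higher and 1 uncalled of 28 tested, with a median of -2.37 (11.8% of all genes were lower). Gip, which encodes the incretin hormone GIP, had 3.30, 0.764, 1.60 and 0.397 CPM in +/C313Y and 29.3, 19.4 and 40.7 CPM in Aire+/- (log2 -4.25 ± 0.38, adjusted p = 7.63e-09). Reg3b, a secreted antibacterial lectin, had 3.30, 0.764, 4.0 and 3.17 CPM against 55.4, 51 and 88.5 CPM (log2 -4.52 ± 0.46, adjusted p = 4.52e-07). The groups were apart for each gene, but Aire+/- exceeded wild type for Reg3b (26.5 CPM ± 11.8, SD, n = 5, adjusted p = 0.0281), and the fall against wild type was -3.25 on the log2 scale. Fabp2, the intestinal fatty acid binding protein, fell by 4.56 on the log2 scale (SE 0.43, adjusted p = 1.01e-08).

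Liver genes gave 16 lower and 4 uncalled of 20 tested, with a median of -2.12 (11.8% of all genes were lower). Apoa1, the main protein of high-density lipoprotein, had 0.367, 0, 7.60 and 0.397 CPM in +/C313Y and 51.9, 70.1 and 74.8 CPM in Aire+/- (log2 -4.98 ± 0.63, adjusted p = 1.71e-05). Library 73 stood above the other +/C313Y libraries, while Aire-/- libraries had 8.49 to 16.3 CPM. Itih3, a plasma protease inhibitor heavy chain, fell by 5.22 on the log2 scale (SE 0.46, adjusted p = 4.51e-09).

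Neuronal and muscle lists were more mixed. Among neuron and glia genes 13 of 21 were lower and 1 higher (median -1.65). Among muscle and heart genes 8 of 14 were lower and 2 higher (median -1.16). Over all genes 11.8% were lower and 4.04% higher. Calb2, the calcium buffer calretinin, had 5.14, 4.97, 4.0 and 1.19 CPM in +/C313Y and 34.3, 26.7 and 29.8 CPM in Aire+/- (log2 -2.96 ± 0.38, adjusted p = 3.20e-06). Its +/C313Y libraries were all below Aire+/- and above all Aire-/- libraries, which had 0.404 to 0.864 CPM. Oxt, the oxytocin precursor, differed by -4.01 ± 0.51, and Actc1, cardiac actin, by -3.50 ± 0.53 (log2; adjusted p = 5.16e-06 and 6.51e-05). Sncg (416 against 363 CPM, adjusted p = 0.612) and Tnnt2 (46.7 against 53.0 CPM, adjusted p = 0.627), which encode gamma-synuclein and cardiac troponin T, did not pass.

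Autoantigens of the human syndrome were lower in 5 of 11 tested genes and higher in 0, with a median of -1.32 (11.8% of all genes were lower). Cyp11a1, the side-chain cleavage enzyme of steroid synthesis, had 1.47, 0.382, 2.0 and 2.78 CPM in +/C313Y and 34.3, 36.8 and 49.5 CPM in Aire+/- (log2 -4.58 ± 0.38, adjusted p = 2.93e-09). Th, the rate-limiting enzyme of catecholamine synthesis, was at 2.21 and 10.8 CPM (log2 -2.27 ± 0.34, adjusted p = 2.26e-05). The groups did not overlap for either gene. Gad1 (35.6 against 26.9 CPM) and Il22 (17.0 against 10.1 CPM) did not pass (adjusted p = 0.394 and 0.428).

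**Figure D3:**
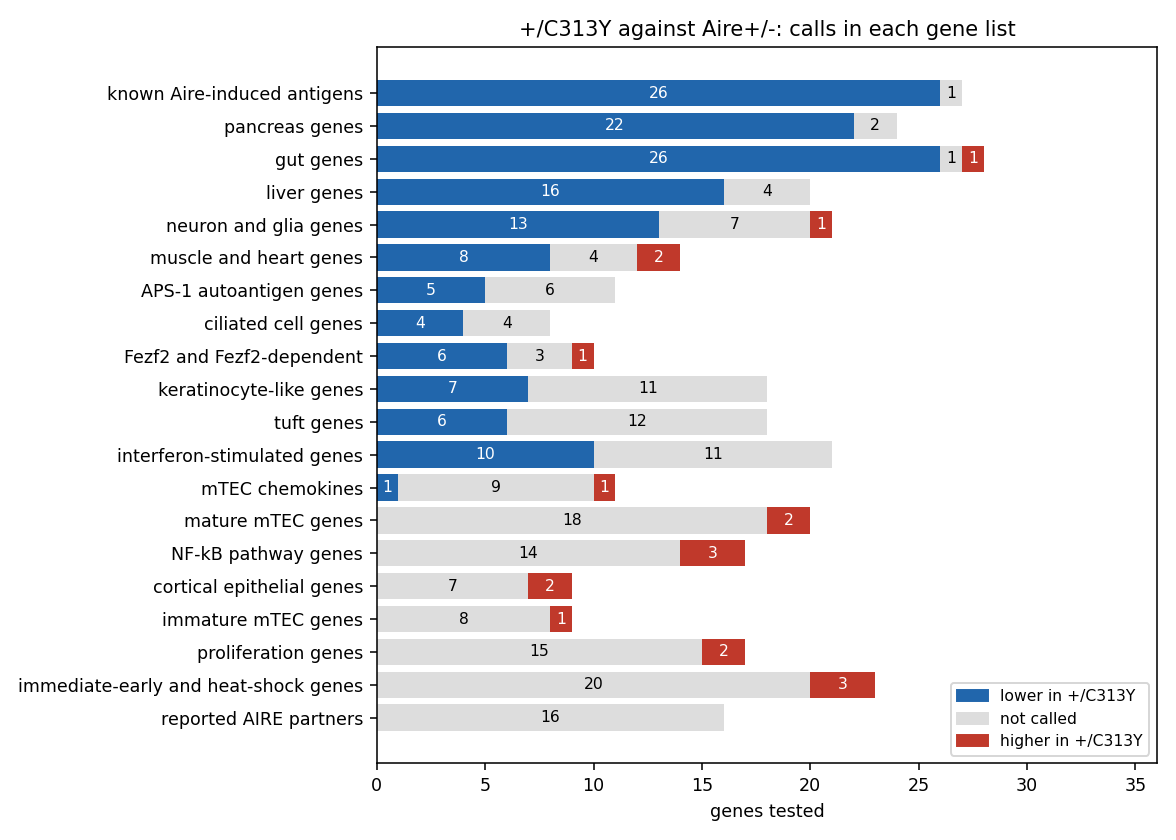
Number of tested genes in each list that were lower in +/C313Y than in Aire+/- (blue), higher (red) or not called (grey). The known antigen, pancreas and gut lists at the top are mostly blue (26 of 27, 22 of 24 and 26 of 28 genes). Neuron and glia (13 of 21), muscle and heart (8 of 14) and APS-1 autoantigen genes (5 of 11) are more mixed. Lists of mTEC regulators, proliferation and stress genes at the bottom are mostly grey.

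Several genes with the largest differences had no count in +/C313Y. Lce1j, a cornified envelope gene at chr3:92788840-92790514, had 0 counts in all 4 +/C313Y libraries and 62, 39 and 88 counts in Aire+/-, at least 61.5-fold lower (adjusted p = 5.36e-07). Gsg1, Defb23, Ceacam9, Kiss1, Hmgb4 and Accsl also had 0 counts in +/C313Y and were lower by at least 18.2-fold (Accsl) to at least 25.7-fold (Gsg1). Kiss1 encodes the neuropeptide kisspeptin and Defb23 a beta-defensin. Sohlh1, a germ cell transcription factor, had 1 count over the 4 libraries and 128 over the 3 Aire+/- libraries, 125-fold lower with a wide counting interval (95% interval 22 to 4975). Each of these genes was also called lower against wild type of the +/C313Y title form. That comparison uses the same 4 +/C313Y libraries, so the second call is no added evidence.

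Relative to Aire-/-, a comparison added after the values were seen, residual antigen levels differed by gene. Of the 27 known antigens, 5 were higher in +/C313Y than in Aire-/-, 2 were lower and 20 did not pass, with a median of 1.05, and over all genes 3.95% were higher and 5.68% lower. Gut genes had 1 higher and 10 lower of 28 (median 0.21), pancreas genes 1 and 3 of 24 (median 1.02), liver genes 3 and 2 of 20 (median -0.14) and neuron and glia genes 6 and 1 of 21 (median 0.01). The whole B6 Aire-induced set had 83 higher and 57 lower (median 0.26). Th was higher in +/C313Y (2.21 against 0.37 CPM, log2 2.63, adjusted p = 0.0205). Calb2 did not pass although its libraries did not overlap (log2 2.51, adjusted p = 0.0533), nor did Apoa1, which was below Aire-/- in 4 of 4 libraries (log2 -2.46, adjusted p = 0.0611). Over all genes this comparison called 1331 (9.63%), and 957, 726 or 695 without Aire-/- library 404, 405 or 406. These 2 groups differ in title form.

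**Figure D4:**
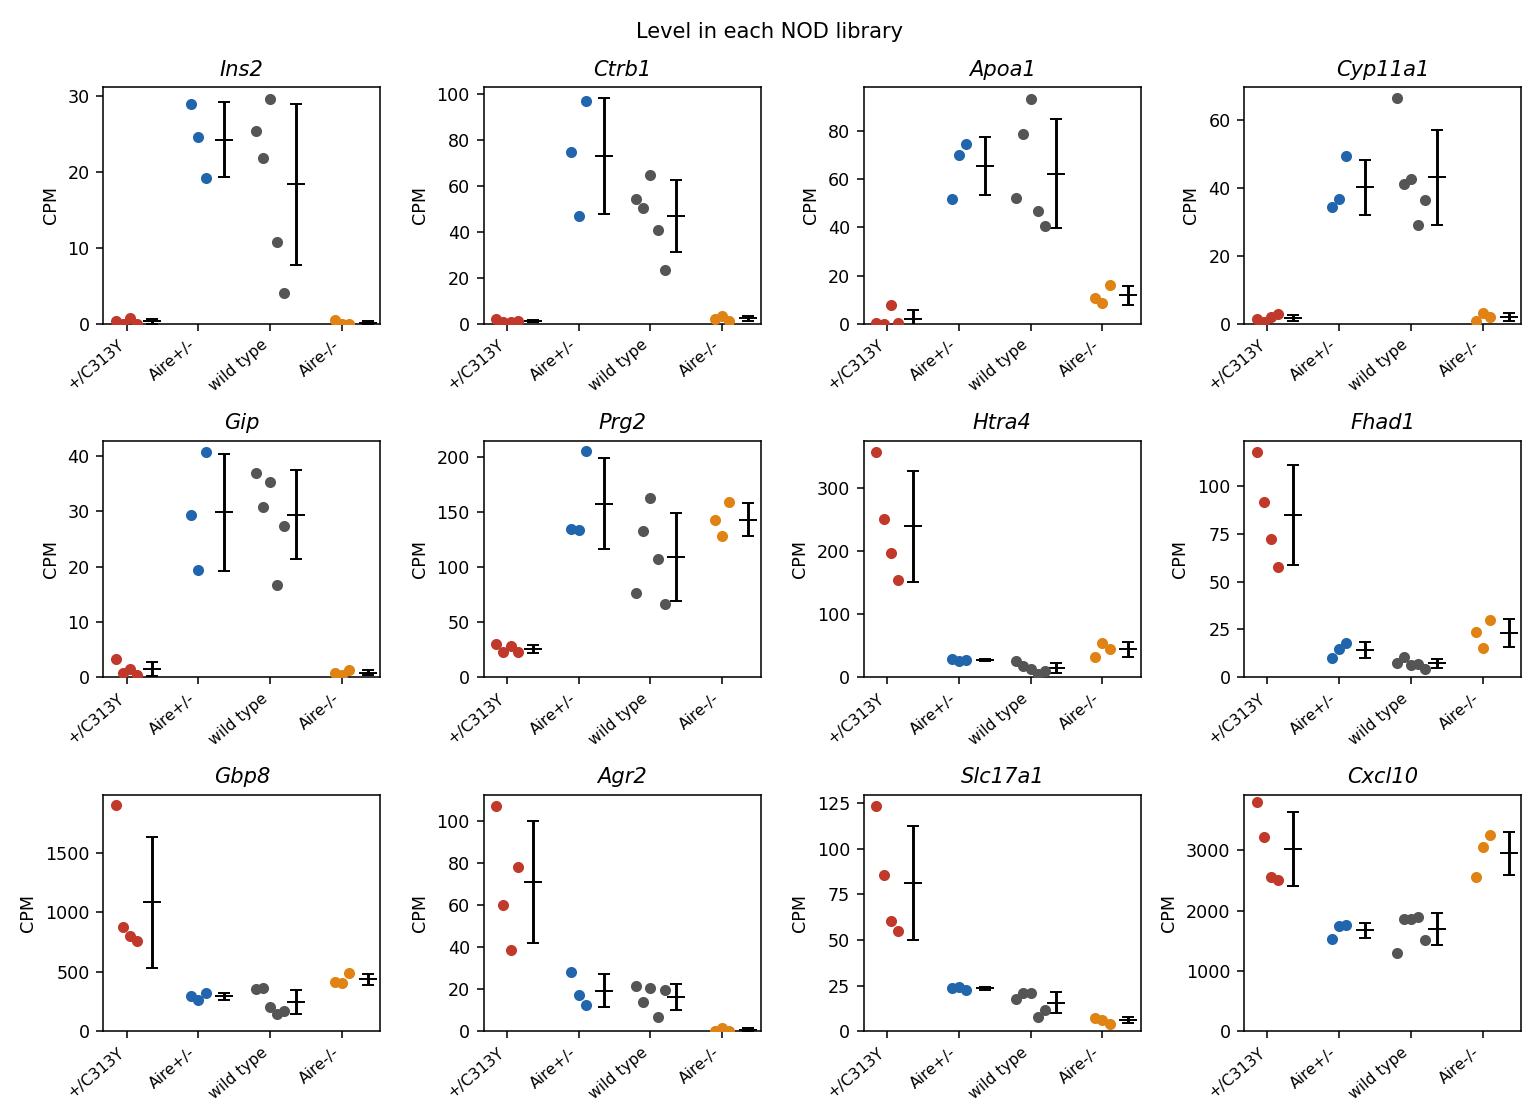
CPM of 12 genes in each +/C313Y, Aire+/-, wild-type and Aire-/- library of the NOD table (points; mean and SD in black). Ins2, Ctrb1, Cyp11a1 and Gip are near 0 in +/C313Y and in Aire-/-, Apoa1 is lowest in +/C313Y, Prg2 is low in +/C313Y alone among these groups, and Htra4, Fhad1, Gbp8, Agr2 and Slc17a1 are highest in +/C313Y.

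Fewer genes were higher. Part of those named were chosen because the comparison with wild type gave the same call. That comparison reuses the +/C313Y libraries, so such agreement is no added evidence. Htra4, a secreted serine protease gene at chr8:25024929-25038962, had 357, 251, 197 and 154 CPM in +/C313Y libraries 50, 53, 73 and 75 and 29.0, 25.3 and 28.1 CPM in Aire+/-. The log2 difference was 3.12 ± 0.36 (adjusted p = 2.51e-06), and it was 4.03 against wild type. Fhad1, which encodes a protein with a phosphopeptide-binding forkhead-associated domain, had 118, 91.7, 72.4 and 57.5 CPM against 10.1, 14.9 and 18.2 CPM (log2 2.55 ± 0.27, adjusted p = 1.33e-07). Aire-/- libraries reached 55.0 CPM for Htra4 and 29.8 CPM for Fhad1, below each +/C313Y library.

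Abcb4, the phospholipid transporter of bile canaliculi, had 8.44, 8.79, 8.0 and 7.54 CPM in +/C313Y and 0.532, 0.694 and 1.01 CPM in Aire+/- (log2 3.37 ± 0.43, adjusted p = 2.07e-06). In -/C313Y against its wild type Abcb4 did not pass (2.44 and 1.30 CPM, adjusted p = 0.280). Gbp8, an interferon-inducible GTPase, had 1904, 873, 800 and 760 CPM against 292, 261 and 323 CPM (log2 1.89 ± 0.33, adjusted p = 0.000314). Library 50 stood far above the other +/C313Y libraries, which were still above every Aire+/- library. The noncoding transcripts Lyrm7os (log2 2.25 ± 0.33) and Pantr1 (2.16 ± 0.27) were also higher, with adjusted p of 1.98e-05 and 1.73e-06.

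A few genes that AIRE raises on B6 were higher in +/C313Y, 13 of 1253, a smaller share than the 4.04% of all genes. The leading 5 were Agr2, Slc17a1, Tac1, Cdh13 and Tnnc1. Agr2, a disulfide isomerase of mucus-secreting cells, had 107, 60.0, 38.8 and 78.2 CPM in +/C313Y and 27.9, 17.3 and 12.6 CPM in Aire+/- (log2 1.88 ± 0.41, adjusted p = 0.00265), while 2 of 3 Aire-/- libraries had 0. Slc17a1, a renal phosphate transporter, had 124, 85.6, 60.4 and 54.7 CPM against 23.7, 24.3 and 22.7 CPM (log2 1.78 ± 0.28, adjusted p = 3.76e-05). Its level in Aire-/- was 5.83 CPM ± 1.65 (SD, n = 3), so that +/C313Y and Aire-/- lay on opposite sides of Aire+/-. For Tac1, the substance P precursor, the adjusted p was 0.0346, and it was 0.138 without Aire+/- library 395, 0.140 without 402, 0.0854 without +/C313Y library 50 and 0.0537 without 53.

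Genes that are higher without AIRE on B6 showed little median difference from Aire+/-. In that comparison a larger share of them than of all genes was higher, and a smaller share lower. Against wild type more of them were higher than lower. Of the 598 genes that rose 2-fold or more on B6 without AIRE (4.71% of those tested there), 553 were tested on NOD: 59 were higher in +/C313Y than in Aire+/-, 50 were lower and 444 did not pass, with a median of 0.03 (4.04% of all genes were higher and 11.8% lower). Against wild type of its title form +/C313Y had 209 members higher and 17 lower (median 0.47), and Aire+/- had 104 higher and 1 lower against the same wild type (median 0.40). The share of counts in that set was 3.59% ± 0.531 (SD, n = 4) in +/C313Y, 3.40% ± 0.0402 (SD, n = 3) in Aire+/-, 2.53% ± 0.311 (SD, n = 5) in wild type and 5.14% ± 0.176 (SD, n = 3) in Aire-/-. Prg2, which encodes eosinophil major basic protein, was among the lower members, with 30.1, 22.9, 28.4 and 23.0 CPM in +/C313Y and 134, 133 and 205.2 CPM in Aire+/- (log2 -2.59 ± 0.23, adjusted p = 7.64e-09). The +/C313Y values of Prg2 were below every wild-type and Aire-/- library. Il4, the cytokine interleukin 4, had 4.04, 0.382, 1.2 and 0.397 CPM against 9.05, 16.7 and 20.7 CPM (log2 -3.29 ± 0.46, adjusted p = 7.39e-06). St6galnac1, Nxph3 and S100a5 were lower as well, by -2.56, -3.03 and -2.23 on the log2 scale.

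Interferon-stimulated genes were lower in 10 of 21 tested and higher in 0, with a median of -0.60 (11.8% of all genes were lower). Ifit3, an antiviral effector, had 11.4, 10.3, 9.60 and 17.9 CPM in +/C313Y and 38.6, 46.1 and 35.9 CPM in Aire+/- (log2 -1.70 ± 0.38, adjusted p = 0.00298). The groups did not overlap. Mx2 and Rsad2 were lower by -1.52 ± 0.23 and -1.47 ± 0.33, while the more abundant Usp18 (372 against 314 CPM, adjusted p = 0.290) did not pass. Against wild type 15 of 21 were lower (11% of all genes), and in -/C313Y against its wild type 14 were lower and 1 higher. Cxcl10, a chemokine that interferon also induces, went the other way: 3801, 3231, 2554 and 2514 CPM in +/C313Y against 1523, 1740 and 1755 CPM in Aire+/- (log2 0.85 ± 0.16, adjusted p = 0.000279). The interferon-inducible Gbp8, described above and not on this list, was also higher. Cxcl10 was the only higher gene of 11 tested mTEC chemokines, Cx3cl1 was the only lower, and the other 9 did not pass; the call of Cx3cl1 was lost without any of 6 libraries (+/C313Y 50, 73 and 75, Aire+/- 392, 395 and 402), at adjusted p of 0.0707 to 0.113.

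Few regulators and identity genes of mTEChi passed the test. Of 16 reported AIRE partners 0 passed in edgeR and 0 in DESeq2, where edgeR called 15.8% of all genes in either direction. In edgeR 1 of the 16 had an unadjusted p under 0.05. Of 20 mature mTEC genes 2 were higher and 18 did not pass (median 0.08; 4.04% of all genes were higher). Both calls were fragile: Ciita lost its call without any single library but +/C313Y 75 (adjusted p = 0.0668 to 0.165), and Icosl without +/C313Y library 53 or Aire+/- libraries 392 or 395 (0.0704 to 0.0731). H2-Aa, an MHC class II chain, had 10955, 9067, 12119 and 12147 CPM in +/C313Y and 11895, 12023 and 13428 CPM in Aire+/-. The groups overlapped (log2 -0.17 ± 0.16, adjusted p = 0.570), and Aire-/- libraries had 18079 to 22761 CPM. Among 17 genes of the NF-kB pathway, which drives mTEC maturation, 3 were higher and 0 lower (median 0.22; 4.04% of all genes were higher). Traf6 lost its call without any single library but +/C313Y 75 (adjusted p = 0.0508 to 0.151), and Nfkb2 without +/C313Y library 53 or Aire+/- libraries 392 or 395 (0.0635 to 0.081). Nfkbie, an inhibitor subunit, had 526, 579, 491 and 547 CPM against 329, 349 and 321 CPM (log2 0.69 ± 0.12, adjusted p = 0.000204), and it was 0.49 above wild type (adjusted p = 0.00136).

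Krt19, a keratin of simple epithelia and a defining gene here, was lower: 27.5, 28.3, 36 and 38.9 CPM in +/C313Y and 112, 101 and 123 CPM in Aire+/- (log2 -1.78 ± 0.22, adjusted p = 1.01e-06). Wild-type libraries had 52.5 to 90.2 CPM, between the groups, and Krt19 is also in the B6 Aire-induced set. Foxn1, the transcription factor of thymic epithelium, was higher (449 CPM ± 59.7, n = 4, against 293 ± 25.1, n = 3; SD; adjusted p = 0.00460), but its wild-type level was 413 CPM ± 57.6 (SD, n = 5) and +/C313Y did not differ from it (adjusted p = 0.613). Of 9 cortical epithelial genes, 2 were higher, Foxn1 and Tbata, and 7 did not pass (median 0.62; 4.04% of all genes were higher). Tbata, a thymus-enriched gene, had 1301, 1006, 1240 and 1296 CPM in +/C313Y and 710, 654 and 785 CPM in Aire+/-, and it was higher against wild type as well (log2 1.09, adjusted p = 9.27e-08). Proliferation genes gave 2 higher of 17 and immediate-early and heat-shock genes 3 higher of 23, with medians of 0.16 and -0.03 (4.04% of all genes were higher). All 5 calls were lost when single libraries were left out: Mcm6 without any but +/C313Y 50 (adjusted p = 0.0651 to 0.192), Mcm3 without +/C313Y 53 or 73 or Aire+/- 395 or 402 (0.112 to 0.15), Hsph1 without any but +/C313Y 73 and Aire+/- 395 (0.0548 to 0.226), Hspa8 without any but +/C313Y 53 and 75 (0.0542 to 0.125), and Dnajb1 without +/C313Y 73 or Aire+/- 402 (0.0521 and 0.0765).

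Lists of specialised mTEC subsets looked different against Aire+/- than against wild type. Tuft cells are chemosensory epithelial cells, and 6 of 18 tuft genes were lower in +/C313Y than in Aire+/- (median -0.91; 11.8% of all genes were lower). DESeq2 called 5. Avil lost its call without any library but +/C313Y 75 (adjusted p = 0.0518 to 0.118), and Trpm5 without any but +/C313Y 73 and 75 (0.0597 to 0.0928). Against wild type 0 were lower and 1 higher (median 0.40), while in Aire+/- against wild type 9 were higher (median 1.55; 3.2% of all genes were higher there). Ptgs1, the prostaglandin synthase COX-1, had 18.3, 9.17, 13.2 and 15.1 CPM in +/C313Y, 42.1, 37.1 and 54.1 CPM in Aire+/- and 14.8 CPM ± 5.06 (SD, n = 5) in wild type. The +/C313Y libraries overlapped wild type and not Aire+/-, and Aire-/- libraries were at 43.3 CPM ± 4.22 (SD, n = 3). The difference from Aire+/- was -1.67 ± 0.24 on the log2 scale (adjusted p = 1.29e-05).

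Keratinocyte-like genes gave 7 of 18 lower than in Aire+/- (median -0.76), where 11.8% of all genes were lower. Against wild type 0 were lower and 5 higher (median 0.25), where 11% and 6.36% of all genes were. In Aire+/- 9 were higher than in wild type, where 3.2% of all genes were. Krt1 lost its call without any library but +/C313Y 73 and Aire+/- 392 (adjusted p = 0.0655 to 0.119). Krt10, a keratin of differentiating skin, had 95.8, 94.4, 146 and 108 CPM in +/C313Y, 222, 337 and 277 CPM in Aire+/- and 87.3 CPM ± 14 (SD, n = 5) in wild type (log2 -1.33 ± 0.30 against Aire+/-, adjusted p = 0.00382). Of 10 genes on the list of Fezf2 and antigens reported to depend on it, 6 were lower and 1 higher than in Aire+/- (median -1.24). The shares over all genes were 11.8% and 4.04%. Apob, the main protein of low-density lipoprotein, was among the lower genes and was lower against wild type too (log2 -2.02, adjusted p = 0.00136), whereas Fabp9 had 17.6 CPM in +/C313Y, 70.5 in Aire+/- and 16.5 in wild type. Whether these lists follow the allele or the title form of the Aire+/- libraries cannot be told apart with the Aire+/- comparison. In the contrast that uses B6 Aire+/- in place of NOD Aire+/-, 0 of 18 tuft and 0 of 18 keratinocyte-like genes were called by edgeR or by DESeq2, where edgeR called 7.34% of all genes. At an unadjusted p under 0.05 there were 2 tuft and 3 keratinocyte-like genes. Strain and allele cannot be told apart in this contrast, and the cause was not tested. In B6 Aire+/- against B6 wild type, 1 of 17 tuft genes was higher and 0 lower, with a median of 0.57. There 8 of the 17 had an unadjusted p under 0.05. Of 16 keratinocyte-like genes 0 passed (median 0.28), where 0.378% of all genes were higher.

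**Figure D5:**
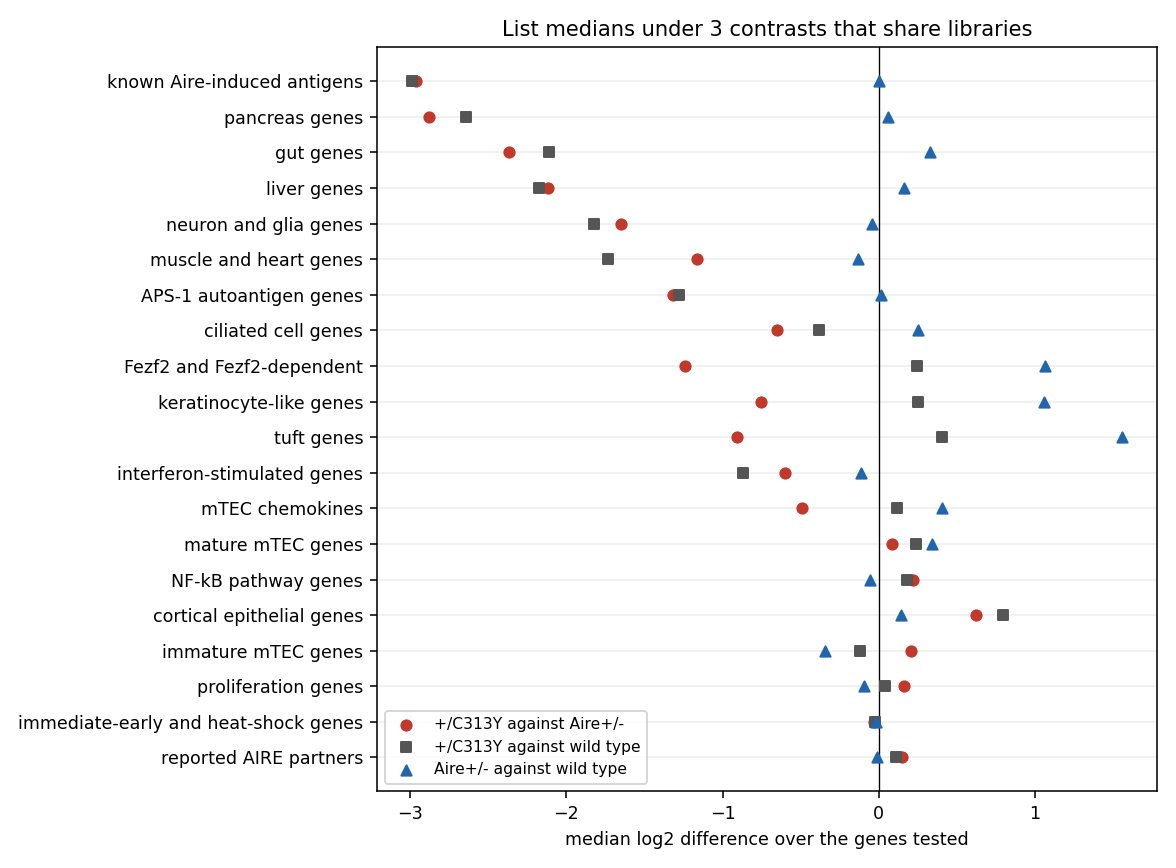
Median log2 difference of each gene list under 3 contrasts that share libraries: +/C313Y against Aire+/- (circles), +/C313Y against wild type of its title form (squares) and Aire+/- against that wild type (triangles). Circles and squares sit together far left for organ antigens, but for the Fezf2, keratinocyte-like and tuft lists the circles are left of 0, the squares slightly right of it and the triangles at 1.06 to 1.55.

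Some markers of other cell types were lower in +/C313Y, where 11.8% of all genes were lower. The summed level of 17 macrophage and dendritic markers ranged from 775 to 1237 CPM in +/C313Y and from 1359 to 1601 CPM in Aire+/-, with 4 of 17 genes lower and 0 higher. For 11 fibroblast and endothelial markers the sums were 109 to 193 and 208 to 246 CPM (3 of 8 tested lower), and for 16 thymocyte markers 177 to 300 and 207 to 383 CPM (2 of 14 tested lower). Both thymocyte calls, Cd3g and Dntt, were lost without Aire+/- library 392 (adjusted p = 0.0866 and 0.472), and Dntt also without +/C313Y libraries 50, 53 or 73 (0.0683 to 0.137). Csf1r, a macrophage marker, lost its call without +/C313Y library 73 or any of the Aire+/- libraries (0.0676 to 0.144). Among fibroblast genes, Col1a2 lost it without any library but +/C313Y 50 (0.0576 to 0.123) and Lum without Aire+/- library 395 (0.0628). None of these markers was at 0 in either group. Col1a1, a collagen that is also in the B6 Aire-induced set, had 7.71, 4.58, 2.80 and 1.98 CPM in +/C313Y and 35.9, 22.9 and 32.1 CPM in Aire+/- (log2 -2.80 ± 0.39, adjusted p = 1.29e-05). Adgre1 and Itgam, markers of macrophages in that set, differed by -1.29 and -2.22 on the log2 scale. The part of other cells in the lower genes, Prg2 and Il4 included, was not tested.

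The promoters of the lower genes differed in base composition from those of other genes. RefSeq promoters (GRCm38.p6, 250 bases before to 50 after the start) were matched by symbol for 10466 of 13827 genes. The motif searched was TATAAA, on the gene's strand and starting 45 to 16 bases before the start, where a TATA box would lie. It was found in 116 of 1272 promoters (9.12%) of genes at least 2-fold lower in +/C313Y, in 2.22% of those at least 2-fold higher, in 1.36% of those not called and in 2.14% of all promoters in the table. Counting either strand at any position, the shares were 17.6% for the lower genes, 8.56% for all tested genes and 13.6% for all promoters in the table. The lower promoters had a median of 5 CG dinucleotides in 300 bases, against 19 over all genes tested, 7 over all promoters in the table and 8.5 for genes at least 2-fold higher. The 100 bases before the start of 3 genes described here with the motif, and of Aire, which also has it and was higher, show the site in capitals; a match is a description of letters only.
Reg3b, lower, chr6:78370785-78370884, plus strand: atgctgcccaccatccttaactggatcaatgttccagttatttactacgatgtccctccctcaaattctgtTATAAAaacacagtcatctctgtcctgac
Nppb, lower, chr4:147985800-147985899, plus strand: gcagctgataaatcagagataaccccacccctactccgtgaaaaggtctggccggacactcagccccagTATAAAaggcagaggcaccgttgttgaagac
Try4, lower, chr6:41302172-41302271, plus strand: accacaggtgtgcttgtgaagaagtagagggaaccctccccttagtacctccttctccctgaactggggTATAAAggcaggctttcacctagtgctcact
Aire, higher, chr10:78043611-78043710, minus strand: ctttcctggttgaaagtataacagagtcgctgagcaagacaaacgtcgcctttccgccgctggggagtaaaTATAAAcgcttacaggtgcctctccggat

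Nppb, the precursor of the natriuretic peptide BNP, had 2, 1, 0 and 0 counts in +/C313Y and 32, 20 and 32 in Aire+/-, 27.3-fold lower (95% counting interval 9.04 to 135; adjusted p = 2.67e-05). Try4, a trypsinogen, had 0, 0.382, 0.400 and 0 CPM in +/C313Y against 4.52, 6.25 and 3.54 CPM in Aire+/- (adjusted p = 0.00150). Try4, Gbp8, Lce1j and Reg3b belong to families of similar genes, and reads could be split between members.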

How the data were processed

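MARS-seq libraries (3' tags) of sorted mTEChi were made by the authors. The tools that the submitters' processing notes name are STAR 2.4.2a, HTSeq, cutadapt, bcl2fastq and DESeq2, with build mm10; strand and collapsing of molecular identifiers are not given in the sources used here. Raw counts were deposited for every library and only these were tested. The deposited normalized signal values and the log2 values named for ComBat, a batch adjustment, entered no test; which batches it used is not given in the sources used here. The authors' deposited log2 fold change, p-value and adjusted p-value were set beside the tests. From the deposited B6 values, 26 per-sample columns were not used.

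Counts of all 21 NOD libraries were fitted with edgeR 4.0.16 (R 4.3.3; quasi-likelihood F test, robust, TMM, filterByExpr) so that groups share the spread estimate. Calls needed a p under 0.05 after Benjamini-Hochberg adjustment. SE is that of the log2 difference. Folds against 0 counts use a floor of 3 counts over the group. Intervals cover counting error only. Depth was 1536436 to 3692601 counts a library, which limits low genes most.

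Named genes were Aire and its neighbours and, at most, the 10 largest called changes in each direction among genes whose ranges do not overlap, 3 called members of each list by size of change and 2 uncalled by level, 8 in each direction called alike against wild type, and 5 in each direction of each B6 set; outside the lists the higher group needed 5 CPM, and Gm and Rik symbols were passed over. Members and lists were chosen with earlier results of these data known. For genes named because their ranges do not overlap, that absence was a condition of choice and is no added evidence. The same holds for genes named because they were called alike against wild type. The alternatives tried were DESeq2 1.42.0, the RLE normalization, an unfiltered table, a fit of the 2 groups alone, a sex term, a 1.2-fold threshold, each library left out, a replicate block where numbers are shared, and other definitions of the Aire-induced set.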

Additional observations from a re-analysis of the deposited data

Results flagged for a closer look

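Among the named genes, 4 values stood apart from their group by the gap to the nearest library relative to the range. The groups held 4 or 5 libraries, and chance flags about 1 in 20 groups. Of the named genes 143 were tested, and the 4 flags were not compared with the number that chance gives. They are listed as descriptions only and are no evidence of a departure beyond chance. In +/C313Y, Gbp8 was at 1904 CPM in library 50, and Apoa1 at 7.60 CPM in library 73. In wild type, Pfkl was at 93 CPM in library 47 and Mcm6, a replication licensing factor, at 63.5 CPM in library 45. No +/C313Y value of Gbp8 or Apoa1 overlapped Aire+/-.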

How the results depend on the processing

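The +/C313Y against Aire+/- count of called genes (2187) was 2294 with DESeq2, 2179 with RLE factors, 2540 without the filter, 2053 with only the 2 groups, 2195 with a sex term and 1655 against a 1.2-fold change, and 1635 to 2148 with a library left out. Of 92 called named genes, 65 kept the call in every alternative run, 27 lost it in at least 1, and 0 changed direction. Leaving out 1 library gave 245 to 1000 genes for Aire+/- against wild type, 732 to 1382 for wild type against wild type of the other title form, 695 to 1502 for +/C313Y against Aire-/-, 15 to 82 for B6 Aire+/- against wild type, and a median of -1.85 to -1.60 for the Aire-induced set. With no fold limit on that set its median was -0.41, and with the 200 genes of smallest p -2.72. The ratio of its share of counts in +/C313Y to that in Aire+/- (0.468) was 0.923, 0.372 and, without its 5 most abundant genes, 0.434. With at least 3 counts for a detected gene, the difference in detected genes was -1451 (-996 with at least 1 count). The causes were not tested, except that the first change of the set adds genes with small changes by construction. No paired analysis was possible because +/C313Y and Aire+/- share no replicate numbers. For -/C313Y against its wild type, which share 3 numbers, the replicate block gave 3608 called genes against 3059 without it on the same 6 libraries; deviations of same-numbered libraries correlated at 0.0729, -0.0546 and 0.187, so the numbers were not taken as pairs. Depth limits low genes: of +/C313Y genes at 0 counts, only a lower bound of the fold is known.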
